A study of Mus musculus with 6 samples.

Results

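The 10 genes described here are imprinted genes that lie outside the Dlk1-Dio3 domain: Plagl1, Peg3, Mest, Grb10, Ndn, Sgce, Peg10, Nnat, Phlda2 and Asb4. They were chosen by name, and every array row annotated with exactly 1 of these symbols was taken, which gave 12 rows for 10 of the 22180 genes measured. Expression was profiled with microarrays in 2 groups of 3 mouse samples each. The first group is Pax7-GFP cells, purified by flow cytometry on a green fluorescent Pax7 reporter after 3 weeks of culture toward a myogenic fate. The second is undifferentiated embryonic stem (ES) cells, which are pluripotent. Both come from mouse ES cell lines. The labels name neither the lines nor the number of clones, they do not say how the reporter was built, and they do not say whether the ES cells passed through a sorter.

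An imprinted gene is transcribed mainly from the copy of 1 parent. At many such genes or their clusters, 1 parental copy carries DNA methylation laid down in the egg or the sperm. Many imprinted genes regulate fetal and placental growth, and paternally expressed genes are often growth promoting while maternally expressed genes are often growth restraining. Plagl1, also known as Zac1, encodes a zinc finger transcription factor that regulates other imprinted genes, which is why such genes are spoken of as a network. In skeletal muscle, Peg3 (also known as PW1) is known from satellite cells and interstitial progenitors. In most tissues Plagl1, Peg3, Mest, Ndn, Sgce, Peg10 and Nnat are expressed from the paternal copy, and Grb10 (outside the brain), Phlda2 and Asb4 from the maternal copy. The arrays measure total transcript and do not separate the parental copies.

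All values are log2 signals, so a difference of 1 is a 2-fold difference. A gene was called when limma gave a p-value under 0.05 after Benjamini-Hochberg adjustment across the 22180 genes and the groups differed at least 2-fold. The array medians lay between 5.61 and 5.69. The values come without detection calls, and a signal near or below the median is therefore not read as absence. The samples matched their labels: 9 of 10 skeletal muscle lineage markers were higher in Pax7-GFP cells and all 8 pluripotency markers were lower, with median log2 differences of 4.65 and -4.69. Over all genes, 7.34% were called higher and 7.15% lower. Pax7 is 1 of the 9, and as the cells were sorted on its reporter it is no separate check. Pax3, named after its values were seen, stood at 0.89 and was not called.

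The promoter sequences of 5 of the genes are shown: Plagl1, Peg3 and Mest, which rose together, and Grb10 and Phlda2, which did not. Promoter CpG sites are where parental methylation is carried at several imprinted genes. Whether these 5 windows carry such methylation was not measured here. Each window runs from 250 bases before to 50 bases after the transcription start in RefSeq (GRCm38.p6), is written 5′ to 3′ on the strand of the gene, and has its CpG sites in capitals.
Plagl1, chr10:13090582-13090881, plus strand: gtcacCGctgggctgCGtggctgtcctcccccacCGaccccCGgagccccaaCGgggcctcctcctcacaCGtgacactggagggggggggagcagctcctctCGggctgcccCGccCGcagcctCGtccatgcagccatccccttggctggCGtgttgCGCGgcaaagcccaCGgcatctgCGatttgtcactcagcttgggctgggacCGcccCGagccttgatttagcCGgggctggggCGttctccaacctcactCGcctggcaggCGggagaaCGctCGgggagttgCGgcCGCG
Peg3, chr7:6730370-6730669, minus strand: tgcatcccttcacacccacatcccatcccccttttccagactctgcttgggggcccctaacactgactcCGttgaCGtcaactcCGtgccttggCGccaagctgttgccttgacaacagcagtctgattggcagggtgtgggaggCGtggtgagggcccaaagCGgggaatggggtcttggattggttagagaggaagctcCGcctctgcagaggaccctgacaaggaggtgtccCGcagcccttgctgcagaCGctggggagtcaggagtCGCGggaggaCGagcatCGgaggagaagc
Mest, chr6:30737803-30738102, plus strand: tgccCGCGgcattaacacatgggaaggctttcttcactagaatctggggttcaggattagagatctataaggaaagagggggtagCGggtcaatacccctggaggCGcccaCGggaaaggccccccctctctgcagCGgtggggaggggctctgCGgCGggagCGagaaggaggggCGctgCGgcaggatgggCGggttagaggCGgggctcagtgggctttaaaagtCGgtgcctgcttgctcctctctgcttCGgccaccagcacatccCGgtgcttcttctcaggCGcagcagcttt
Grb10, chr11:12037371-12037670, minus strand: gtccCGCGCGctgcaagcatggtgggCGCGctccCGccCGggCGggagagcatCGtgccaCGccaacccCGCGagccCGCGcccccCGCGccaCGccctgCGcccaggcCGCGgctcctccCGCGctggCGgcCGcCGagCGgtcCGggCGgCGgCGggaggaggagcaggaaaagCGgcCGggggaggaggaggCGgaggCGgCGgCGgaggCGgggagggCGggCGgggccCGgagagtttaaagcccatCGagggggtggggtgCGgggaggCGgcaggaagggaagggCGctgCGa
Phlda2, chr7:143502475-143502774, minus strand: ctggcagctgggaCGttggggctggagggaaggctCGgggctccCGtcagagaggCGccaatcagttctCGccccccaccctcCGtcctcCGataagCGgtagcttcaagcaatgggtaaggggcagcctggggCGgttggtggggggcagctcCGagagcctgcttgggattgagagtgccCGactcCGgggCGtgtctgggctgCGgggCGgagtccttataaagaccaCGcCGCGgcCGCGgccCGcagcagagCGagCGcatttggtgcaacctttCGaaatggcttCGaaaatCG

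The windows of Plagl1, Peg3 and Mest held 26, 13 and 17 CpG sites, and those of Grb10 and Phlda2 held 45 and 26. The median over all 32851 RefSeq windows was 7. The share of windows with at least as many CpG sites was 1.93% for Grb10 and 16.9% for Plagl1 and Phlda2. It was 31.4% for Mest and 37.9% for Peg3. The 7 windows not shown held 8 and 17 at further starts of Mest, 9 at another start of Grb10, 11 for Ndn, 17 for Nnat, and 6 and 8 for Asb4. RefSeq windows were found for 8 of the 10 genes, 12 windows in all, and not for Sgce and Peg10. The Mest window with 17 sites that is not shown (chr6:30737800-30738099) covers almost the same bases as the one shown. The 12 windows are therefore not all separate sequences. The palindrome GGGGCCCC, a sequence bound by Plagl1, was searched as written, which covers both strands. It occurred in 1 of the 12 windows, that of Peg3, 201 bases before the start, and in 1.08% of all windows. The E-box CAGCTG, a palindrome bound by myogenic factors such as Myod1, occurred in 2 of the 12 windows and in 16.3% of all windows. The 2 were that of Phlda2, 246 bases before the start, and an upstream window of Mest (chr6:30733256-30733555), 135 bases before its start. These matches describe letters in a fixed window and do not show binding.

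Among these 10 members, the rises fell on the paternally expressed genes. The other imprinted genes listed showed no such division, with median log2 differences of 0.14 for paternally and 0.20 for maternally expressed genes. All 7 paternally expressed members rose in Pax7-GFP cells, by 1.72 to 3.69 on the log2 scale, while 0 of the 3 maternally expressed members rose. Of the maternally expressed members, Phlda2 fell, Grb10 was lower but short of the 2-fold minimum, and Asb4 was near the same low signal in both groups. Over the 10 members this made 7 higher, 1 lower and 2 not called, against 7.34% of all 22180 genes called higher and 7.15% called lower. At the adjusted p alone, 9 of the 10 members passed, against 41.1% of all genes. The 6 array values did not overlap between the groups in 9 of the 10 members, against 51.9% of all genes. The median log2 difference of the members was 1.91, and that of all genes was 0.024. In bulk samples such as these, fewer cells of a type and less RNA per cell cannot be told apart. The members were picked with earlier results of these data known, so these counts describe the 10 genes and are no test of imprinted genes at large.

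**Figure D1:**
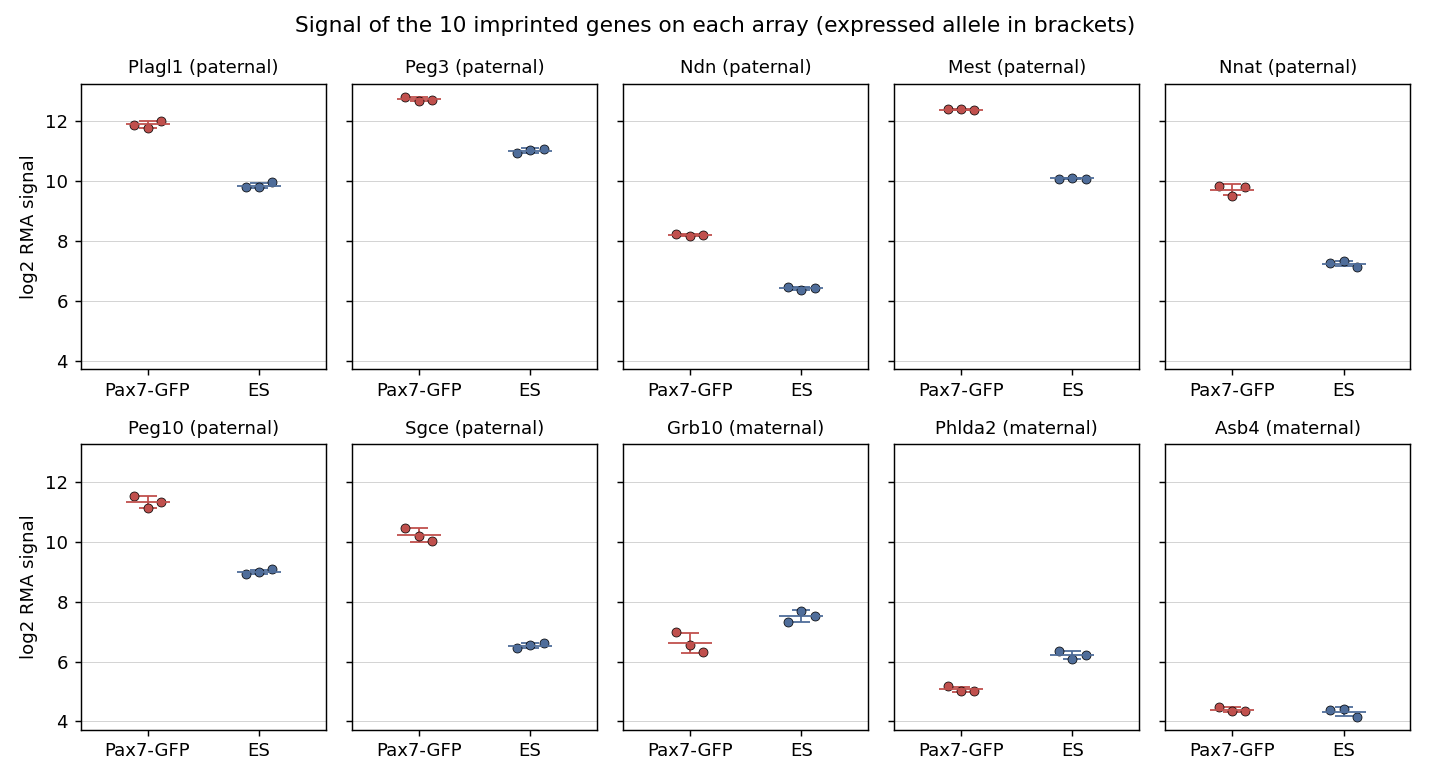
Log2 RMA signal of each of the 10 imprinted genes, with 1 point per array, the group mean as a horizontal line and the SD as an error bar (3 Pax7-GFP arrays at left, 3 ES arrays at right of each panel). The 7 genes marked paternal lie higher on every Pax7-GFP array than on any ES array, Grb10 and Phlda2 lie lower, and Asb4 overlaps.

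Plagl1, the zinc finger transcription factor, had log2 signals of 11.86, 11.78 and 12.01 in Pax7-GFP cells, against 9.80, 9.78 and 9.95 in ES cells. All 3 Pax7-GFP arrays stood above all 3 ES arrays, and the gene was already well above the array median in ES cells. The difference was 2.04 (SE 0.094), or 4.12-fold, with a limma adjusted p of 8.82e-07. A further row annotated to Plagl1 had signals below the array median, 4.52 ± 0.333 in Pax7-GFP cells and 3.70 ± 0.0748 in ES cells (SD, n = 3 each). Its difference of 0.82 (SE 0.157, limma adjusted p = 0.00302 over all single-symbol rows) had the same sign and fell short of 2-fold. The mean of both Plagl1 rows gave 1.43.

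Peg3, a zinc finger protein linked to p53-dependent cell death and to muscle stem cells, had signals of 12.81, 12.68 and 12.69 in Pax7-GFP cells, against 10.92, 11.02 and 11.08 in ES cells. The groups were far apart relative to their spread, with an SD of 0.0744 in Pax7-GFP cells and 0.0778 in ES cells. Peg3 rose by 1.72 (SE 0.085), which is 3.30-fold (limma adjusted p = 1.31e-06). A row annotated to Peg3 together with Peg3os, its antisense transcript, was not used. That row averaged 9.85 in Pax7-GFP cells and 8.79 in ES cells, a smaller difference of 1.06 in the same direction. Ndn encodes necdin, a MAGE family protein of cells that leave the cycle. Its signals were 8.24, 8.16 and 8.21 in Pax7-GFP cells, against 6.46, 6.36 and 6.43 in ES cells. The ranges were narrow and apart, and the difference was 1.79 (SE 0.077), or 3.45-fold (limma adjusted p = 6.34e-07). The 95% confidence intervals of Peg3 (1.53 to 1.92) and Ndn (1.61 to 1.96) overlapped.

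Sgce encodes epsilon-sarcoglycan, a membrane protein of the dystrophin-associated complex. It had signals of 10.47, 10.17 and 10.01 in Pax7-GFP cells, against 6.44, 6.55 and 6.60 in ES cells. Sgce rose by 3.69 (SE 0.123), which is 12.9-fold and the largest difference of the 10 genes (limma adjusted p = 1.58e-07). Its 95% confidence interval, 3.40 to 3.97, lay above those of the other 9 members. Nnat encodes neuronatin, a small endoplasmic reticulum proteolipid linked to calcium handling. It stood at 9.82, 9.49 and 9.81 in Pax7-GFP cells, against 7.26, 7.33 and 7.14 in ES cells. The groups did not overlap, and the difference was 2.46 (SE 0.112), or 5.52-fold (limma adjusted p = 8.07e-07). A further Nnat row rose too, by 1.46 (SE 0.182), to 6.50 ± 0.38 in Pax7-GFP cells, against 5.04 ± 0.155 in ES cells (SD, n = 3 each, limma adjusted p = 0.000286 over all single-symbol rows).

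Mest, a protein of the hydrolase fold family that is widespread in embryonic mesoderm, was the most even of the members between samples. Its signals were 12.39, 12.39 and 12.37 in Pax7-GFP cells, against 10.07, 10.11 and 10.07 in ES cells. The SD was 0.0142 in Pax7-GFP cells and 0.0256 in ES cells, below the median gene's 0.142 and 0.0836 in those groups. Mest rose by 2.30 (SE 0.074), which is 4.92-fold (limma adjusted p = 1.29e-07). Peg10, a retrotransposon-derived gene needed for the placenta, had signals of 11.53, 11.12 and 11.33 in Pax7-GFP cells, against 8.92, 8.98 and 9.07 in ES cells. All Pax7-GFP arrays were above all ES arrays, and Peg10 rose by 2.33 (SE 0.115), which is 5.04-fold (limma adjusted p = 1.28e-06).

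The maternally expressed members behaved otherwise. Phlda2, a pleckstrin homology domain protein that restrains placental growth, had signals of 5.17, 5.01 and 5.03 in Pax7-GFP cells, against 6.36, 6.08 and 6.21 in ES cells. Every Pax7-GFP array was lower than every ES array and lay below the array median. Phlda2 fell by 1.15 (SE 0.099) on the log2 scale, or 2.22-fold (limma adjusted p = 3.41e-05), with a 95% confidence interval from -1.38 to -0.92. That interval includes differences short of 2-fold, and limma's test for a change beyond 2-fold did not call it (adjusted p = 0.785).

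Grb10 encodes an adaptor that binds the insulin and IGF1 receptors and damps their signalling. It had signals of 6.98, 6.56 and 6.32 in Pax7-GFP cells, against 7.32, 7.70 and 7.53 in ES cells. The groups did not overlap, and the Pax7-GFP array nearest to the ES arrays was that of replicate 1. The difference was -0.90 (SE 0.171, limma adjusted p = 0.00305), past the p threshold and short of 2-fold. Without Pax7-GFP replicate 1 it was -1.07 (limma adjusted p = 0.000197), and with array weights it was -1.01 (limma adjusted p = 0.000423), and under both Grb10 was called lower. Asb4, a substrate receptor of a cullin ubiquitin ligase, had signals of 4.50, 4.34 and 4.35 in Pax7-GFP cells, against 4.39, 4.43 and 4.16 in ES cells. The groups overlapped, all 6 arrays were below the array median, and the difference was 0.069 (SE 0.101, 95% confidence interval -0.16 to 0.30, limma adjusted p = 0.649).

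**Figure D2:**
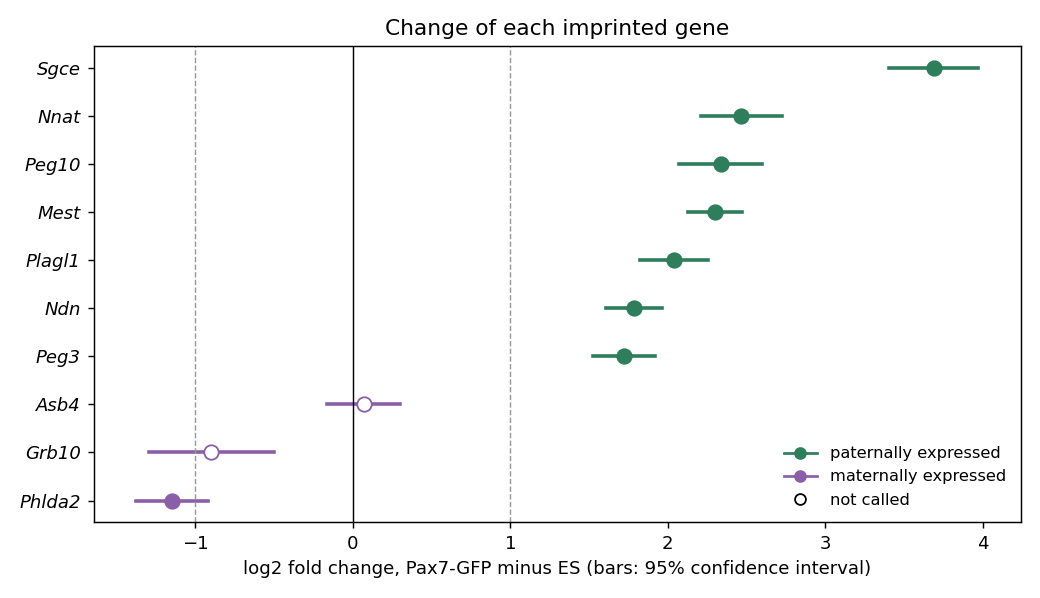
Log2 fold change of each gene, Pax7-GFP minus ES, with its 95% confidence interval. Dashed lines mark a 2-fold difference in either direction, and open points were not called. The 7 paternally expressed genes lie between 1.72 and 3.69, and the 3 maternally expressed genes between -1.15 and 0.07.

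Among the risers, Sgce stood apart and the other 6 formed a narrow band from 1.72 to 2.46. The likeness of 2 patterns was measured as the root mean square difference over the 6 arrays after each gene was centred on its own mean. The closest pair of members was Peg3 and Ndn at 0.075, followed by Peg10 and Nnat at 0.126 and Mest and Peg10 at 0.127. Plagl1 was closest to Ndn, at 0.149. Over all genes, the nearest to Plagl1 were Creb3l2 at 0.042, Fyn at 0.059, Pygo1 at 0.062, Tcf12 at 0.082 and Top2b at 0.084. The nearest to Peg3 were Mki67 at 0.046, Tubb6 at 0.060, Sirt2 at 0.066, Ric1 at 0.068 and Rbms1 at 0.072. With 2 groups the measure follows the size of the group difference. Creb3l2 and Fyn had log2 differences of 2.11 and 2.02, beside 2.04 for Plagl1, and the neighbours of Peg3 had 1.65 to 1.73, beside 1.72 for Peg3.

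Within the Pax7-GFP group, replicate 1 held the highest signal for 9 of the 10 members and replicate 3 for Plagl1. Replicate 1 was highest for 33.8% of all genes and for 54.4% of the genes called higher. The mean over the members was 9.38 on replicate 1, 9.17 on replicate 2 and 9.21 on replicate 3, against 7.79 to 7.83 on the ES arrays. Without Pax7-GFP replicate 1 the 8 calls were kept, and Grb10 was added. The ES arrays showed no such pattern, as the highest signals fell on replicate 1 for 2 members and on replicates 2 and 3 for 4 members each.

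Imprinted genes often lie in clusters, so the members were set beside 47 measured genes of 8 chromosomal neighbourhoods. In these lists 14 neighbours rose and 3 fell, against 7.34% of all genes called higher and 7.15% called lower. The remaining 30 had no call, although 10 of them met the p criterion, and the median log2 difference was 0.19. The cluster of Sgce, Peg10 and Asb4 on chromosome 6 had the most risers, 5 of 9 measured neighbours, with 0 lower. Dync1i1, a dynein intermediate chain, rose by 3.16 (SE 0.208), Pdk4, which restrains pyruvate dehydrogenase, by 2.42 (SE 0.123), and Casd1, a sialic acid acetyltransferase and the coding gene next to Sgce, by 1.51 (SE 0.108). Ppp1r9a (neurabin) rose by 1.33 and Pon2 (a paraoxonase) by 1.24. Calcr stood at 0.79, Tfpi2 at 0.35, Pon1 at -0.05 and Pon3 at -0.05, not called. Among coding genes, Asb4 lies between Pon2 and Pdk4 in the gene order of the reference, so an uncalled member stood between genes that rose.

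Other clusters were mixed. Beside Peg3 on chromosome 7, Zim1, a zinc finger gene read from the maternal copy, rose by 2.84 (SE 0.328), and Usp29, a ubiquitin protease gene read from the paternal copy, by 1.95 (SE 0.280). Zim1 stood at 9.92, 8.47 and 8.66 in Pax7-GFP cells, against 6.17, 6.15 and 6.23 in ES cells, so it spread more than Peg3. Beside Mest on chromosome 6, Cep41 (a centrosomal protein) rose by 2.19 and Cpa5 (a carboxypeptidase) by 2.15. Cpa4 at 0.96, Cpa1 at 0.25, Klf14 at 0.25 and Copg2, which overlaps the far end of Mest, at 0.20 were not called.

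Beside Ndn on chromosome 7, Peg12 rose by 1.02 (SE 0.159), whereas Ube3a at 0.65, Magel2 at 0.15 and Mkrn3 at 0.14 were not called. Magel2, another MAGE gene, is the next coding gene to Ndn in the reference order, and its signals were 5.20 ± 0.0846 in Pax7-GFP cells and 5.05 ± 0.101 in ES cells (SD, n = 3 each). Beside Plagl1 on chromosome 10, Phactr2 rose by 1.17, and Zc2hc1b at 0.02, Ltv1 at -0.43 and Sf3b5 at -0.83 were not called. Beside Nnat on chromosome 2, Tgm2 rose by 1.08, Src fell by 1.01, and Ctnnbl1 at -0.52 and Blcap at 0.03 were not called. Nnat lies within the transcription unit of Blcap, whose signal was 5.73 ± 0.162 in Pax7-GFP cells and 5.70 ± 0.207 in ES cells (SD, n = 3 each).

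The cluster of Phlda2 held changes in opposite directions. Cdkn1c, which encodes the cell cycle inhibitor p57, lies near Phlda2 and is also read from the maternal copy. It rose by 2.90 (SE 0.213), with signals of 9.44, 8.78 and 8.98 in Pax7-GFP cells, against 6.33, 5.76 and 6.41 in ES cells, while Phlda2 fell. Slc22a18, which lies between them, stood at -0.10 and was not called. Osbpl5, an oxysterol-binding protein, rose by 1.79. Tnfrsf22 and Tnfrsf23, decoy receptors of the TNF family, stood at -1.10 and -1.35, both called lower. The other 9, which were not called, were Kcnq1ot1 at 0.35, Nap1l4 at 0.19, Kcnq1 at 0.12, Tssc4 and Cd81 at 0.03 and 0.02, Cars at -0.0007, Dhcr7 at -0.11, Ascl2 at -0.57 and Tspan32 at -0.91. Beside Grb10 on chromosome 11, 0 of 4 measured neighbours were called, with Ikzf1 at 0.29, Ddc at 0.02, Cobl at -0.16 and Fignl1 at -0.80.

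**Figure D3:**
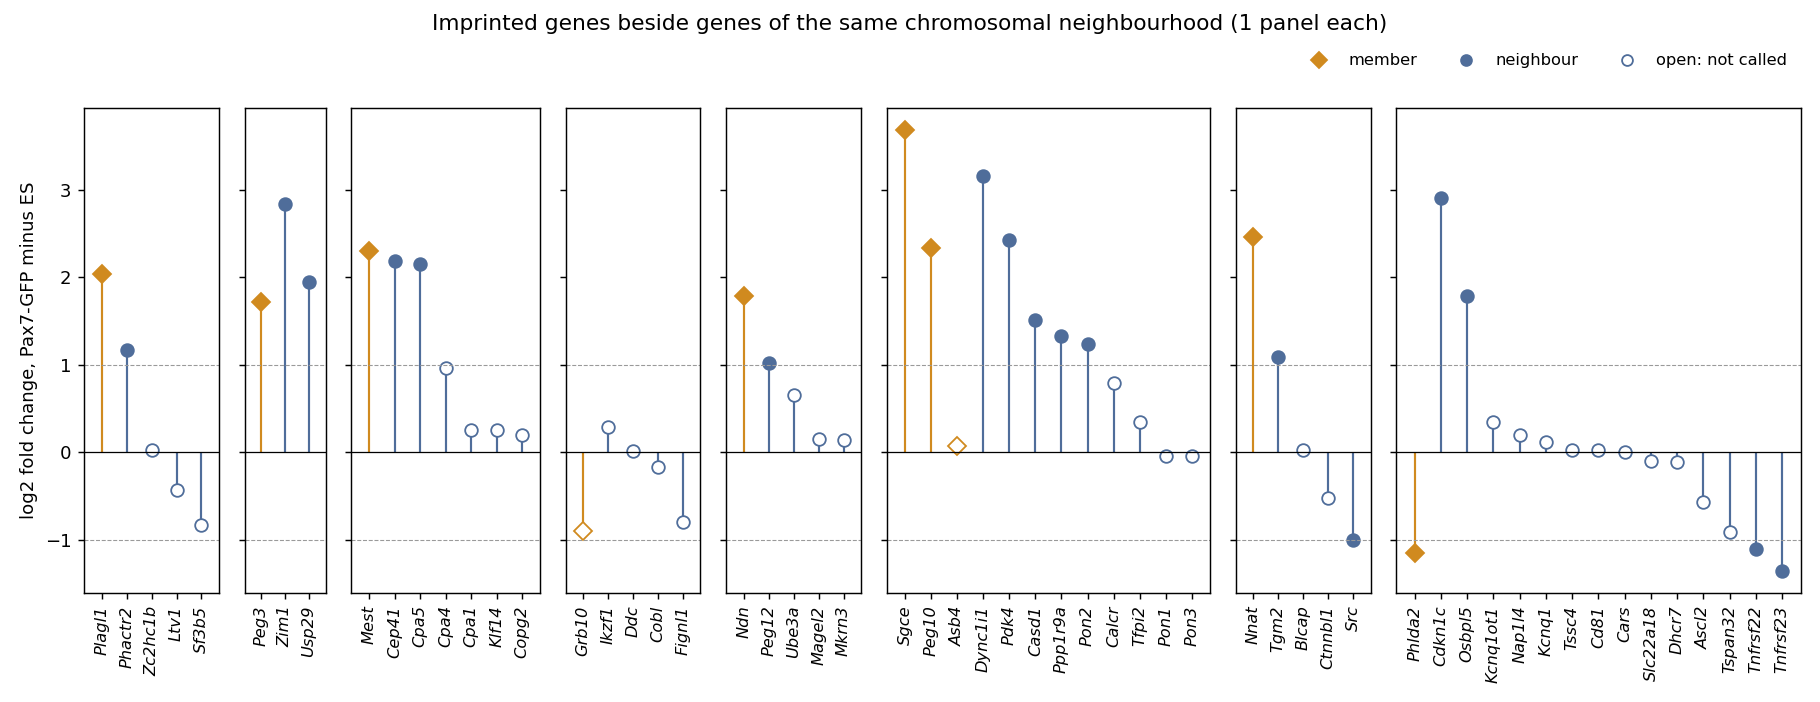
Log2 fold change, Pax7-GFP minus ES, of the members (diamonds) and of measured genes of the same chromosomal neighbourhood (circles), with 1 panel per neighbourhood and neighbours sorted by their change. Filled symbols were called and dashed lines mark a 2-fold difference. The panel of Sgce, Peg10 and Asb4 holds 5 called neighbours, all higher, and that of Phlda2 holds 2 higher and 2 lower.

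In the other imprinted genes listed, both parental groups held risers and fallers, and both medians lay near 0. Of 49 such genes outside the Dlk1-Dio3 domain 43 had a row of their own. Of these 11 rose and 3 fell, against 7.34% of all genes called higher and 7.15% called lower. The other 29 had no call, 7 of them meeting the p criterion, and the median log2 difference was 0.15. Many of the 43 genes are also neighbours counted above. Among these are the risers Zim1, Usp29, Peg12, Ppp1r9a, Pon2, Cdkn1c and Osbpl5 and the fallers Tnfrsf22 and Tnfrsf23. The counts of neighbours and of other imprinted genes are therefore not separate. Among 15 paternally expressed genes 4 rose and 1 fell, with a median of 0.14. The growth factor gene Igf2 rose by 4.67 (SE 0.079), Airn, the antisense transcript of Igf2r, by 3.15 (SE 0.136), and Usp29 by 1.95. Sfmbt2, a polycomb-type protein of the trophoblast, fell by 1.59 (SE 0.096). Among 28 maternally expressed genes 7 rose and 2 fell, with a median of 0.20. Gatm, an enzyme of creatine synthesis, rose by 3.61 (SE 0.149), Dcn, the proteoglycan decorin, by 3.03 (SE 0.212), and Cdkn1c by 2.90, while Tnfrsf22 and Tnfrsf23 fell. Several of these genes are imprinted in the placenta or in other single tissues only. H19, Snrpn and Snurf share their rows with another symbol and were not counted. All these lists were written with earlier results in view, and the difference between members and other imprinted genes was not tested.

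**Figure D4:**
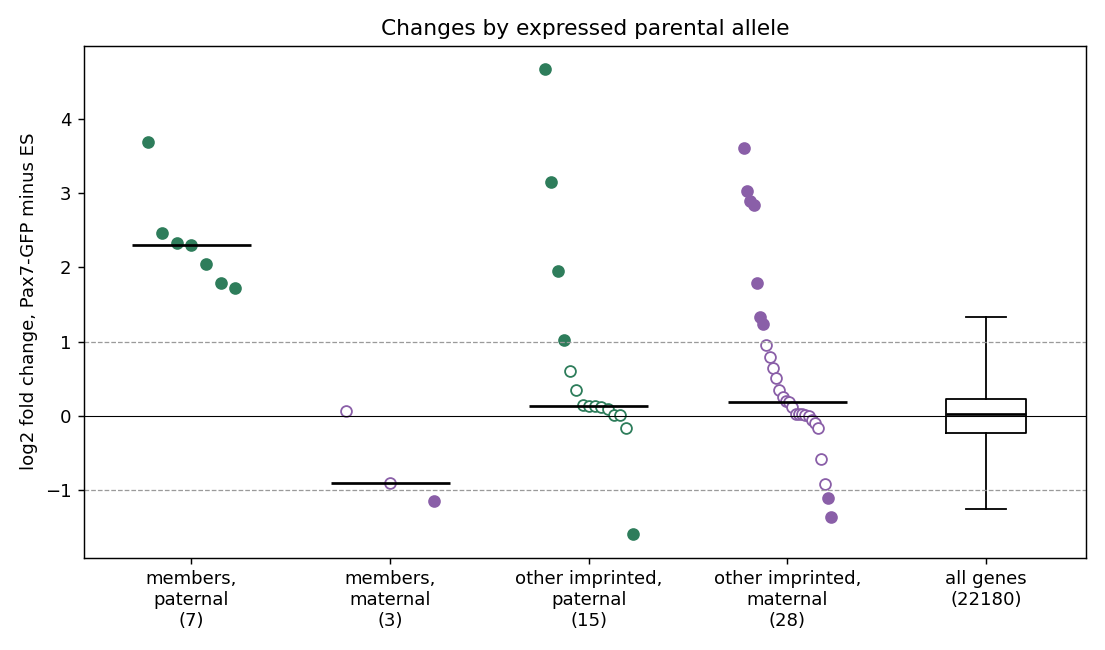
Log2 fold change, Pax7-GFP minus ES, of the members and of other imprinted genes by the parental copy they are usually expressed from, with the number of genes under each label. Filled points were called, short black lines are medians, and the box gives the quartiles of all 22180 genes with whiskers at the 5th and 95th percentiles. Medians are 2.30 and -0.90 for the paternally and maternally expressed members, and 0.14 and 0.20 for the other imprinted genes.

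Paralogs and partners of the members were read from a further list. Of its 30 measured genes 12 rose and 0 fell, against 7.34% of all genes called higher and 7.15% called lower. The other 18 of the list were not called, and its median was 0.57. Of these 18, 10 met the p criterion, some higher and some lower in Pax7-GFP cells. The 3 largest rises were those of Atp2a1, the fast muscle calcium pump, by 4.70 (SE 0.217), Irs1, an insulin receptor substrate, by 4.14 (SE 0.118), and Sgca, alpha-sarcoglycan, by 3.46 (SE 0.127). The other genes of this paragraph were singled out after their values were seen. Among the sarcoglycans, Sgcb rose by 3.43 (SE 0.083), to signals of 9.67, 9.59 and 9.76 in Pax7-GFP cells, against 6.22, 6.31 and 6.21 in ES cells, and Sgcd by 1.15. Sgcz stood at -0.55. Dag1, dystroglycan of the same complex, rose by 1.23. Sgce therefore differed in the same direction as the muscle sarcoglycans Sgca and Sgcb. On the receptors that Grb10 binds, Igf1r rose by 1.85 (SE 0.158) and Insr stood at 0.66 (limma adjusted p = 0.0434), short of 2-fold. Irs2 rose by 2.05. The Grb10 paralogs Grb7 and Grb14 stood at -0.75 and 0.66. Phlda1, a paralog of Phlda2, rose by 2.77 (SE 0.132), and Phlda3 stood at 0.93. The Plagl1 paralogs Plag1 and Plagl2 stood at -0.62 and 0.11, neither called.

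Genes that keep or erase the methylation of imprints were read next. Of the 14 measured, 8 fell and 0 rose, against 7.15% of all genes called lower and 7.34% called higher. The remaining 6 had no call, 5 of them meeting the p criterion, and the median log2 difference was -1.15. Dnmt3l, a cofactor of de novo methylation, fell by 4.86 (SE 0.190). Tet1, a methylcytosine dioxygenase, fell by 3.49 (SE 0.209), and Dnmt3b, a de novo methyltransferase, fell by 3.36 (SE 0.115). Zfp57, the zinc finger protein that holds methylation at imprints in early embryos and ES cells, was named after its values were seen. It fell by 3.01 (SE 0.267), to signals of 8.60, 7.58 and 7.47 in Pax7-GFP cells, against 10.82, 10.84 and 11.01 in ES cells. The other genes that fell were Dppa3 at -1.64, Trim28 at -1.21, Uhrf1 at -1.18 and Tet2 at -1.13. They and the 6 without a call were also named after their values were seen. Smchd1 at 0.72, Dnmt3a at 0.60 and Zfp445 at 0.46 were higher in Pax7-GFP cells at the p criterion, Setdb1 at -0.68 and Ctcf at -0.39 were lower at it, and Dnmt1, the maintenance methyltransferase, stood at -0.10 and did not meet it. No methylation was measured in these samples.

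Markers of other cell types were read beside these results, because imprinted genes are also high in placenta, brain, fat and connective tissue. As a background to the marker counts, 7.34% of all genes were called higher and 7.15% lower. Of 8 measured trophoblast markers 1 rose, Tpbpa, by 5.32 (SE 0.345), and 1, Tfap2c, fell by 1.10. The mean signal of this list was 6.05 to 6.19 on Pax7-GFP arrays and 5.55 to 5.58 on ES arrays. Tpbpa alone averaged 10.13 in Pax7-GFP cells and 4.81 in ES cells, so the list mean does not show a rise across these markers. The other 6 had no call and were singled out once their values were known. Their log2 differences were 0.27 for Hand1, 0.24 for Krt7 and -0.33 for Cdx2, which met the p criterion, and at 0.11 for Gata3, 0.11 for Plac1 and -0.02 for Elf5, which did not. Fibroblast and mesenchyme markers were higher in 5 of 9, led by Osr1, Col3a1 and Dpt at 2.57, 2.53 and 2.22, with 0 lower. Their mean signal was 7.51 to 7.80 on Pax7-GFP arrays and 6.13 to 6.32 on ES arrays. Neural markers had 1 higher (Map2 at 1.46) and 3 lower of 8, led by Tubb3 at -4.30, with a mean signal of 5.71 to 5.88 on Pax7-GFP arrays and 6.37 to 6.44 on ES arrays. Adipose markers had 1 of 7 higher, Cebpa at 1.12, with a mean signal of 5.22 to 5.35 and 4.92 to 5.00 on Pax7-GFP and ES arrays. Extraembryonic endoderm markers had 2 of 8 higher, Dab2 at 1.52 and Gata6 at 1.13, and endothelial markers 1 of 6 higher, Cdh5 at 1.41, and 1 lower, Pecam1 at -2.43. Among 5 haematopoietic markers, Laptm5 (-2.81) and Cd68 (-1.56) were lower. The part of these cell types in the members' signals was not tested.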

How the data were processed

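Total RNA of 6 samples was hybridised to single-colour arrays as amplified, biotin-labelled cRNA, per the labels' protocols. The deposited values are log2 RMA signals, made in R 2.12.1 per the submitters' processing notes. The sources used here do not give the RMA options, the probe set definition or the genome build. RMA compresses differences of genes near background. Groups and replicate numbers came from the sample titles. The titles call the replicates biological without saying how cultures were kept apart, so p-values cover only the variation among these samples, which may be technical.

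Of 41345 rows, 23521 carried 1 gene symbol in the platform annotation, 1814 several and 16010 none. A gene took its single-symbol row with the highest mean over all arrays, giving 22180 genes. R 4.3.3 and limma 3.58.1 were used for one two-sided fit of these genes (functions lmFit and eBayes), and differences are Pax7-GFP minus ES. Precision is limited by 3 arrays per group. Named genes were all members and their rows, all measured neighbours, the 3 largest called rises and falls of each other list, and the 5 genes nearest to Plagl1 and Peg3. Genes outside this rule are marked in the text as named after their values were seen. Members and lists were chosen with earlier results of these data known. Deviations of same-numbered samples correlated at -0.108, -0.22 and 0.007, so the numbers were not taken as pairs. The fit was tested on simulated data. Alternatives covered scaling, a signal floor, dim genes, probe set choice, the fold minimum, weighted arrays, another variance prior, the replicate block and leaving out single arrays.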

Additional observations from a re-analysis of the deposited data

How the results depend on the processing

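The 7 rises were called under every alternative that kept the 2-fold rule: other scaling, a signal floor of 5, leaving out dim genes, another choice of probe set (where the second Nnat row made 8), weighted arrays, another variance prior, the replicate block and leaving out single arrays. Members called lower numbered 2 with no minimum fold, with array weights and without Pax7-GFP replicate 1, where Grb10 joined Phlda2. Leaving out single arrays gave 1 to 2 such members. They numbered 0 with dim genes left out (Phlda2 and Asb4 were not tested there) and at a 4-fold minimum, by construction of these settings. They also numbered 0 in a limma test against 2-fold, where Phlda2 was tested and not called (adjusted p = 0.785). At the 4-fold minimum 5 members were higher, without Peg3 and Ndn. With the replicate block, 3213 genes, 7 higher and 1 lower members were called, and no member's call changed. For other imprinted genes, 6 were higher and 0 lower at 4-fold, 7 and 1 against 2-fold, and 5 were lower with no minimum fold. Over all genes 9126, 1010 and 1713 were called with no minimum, at 4-fold and against 2-fold. Plagl1 and Nnat stood at 1.43 and 1.96 with the mean of their rows. Asb4, not called in any setting that tested it, ranged from -0.015 to 0.121. Without detection calls, signals near or below the array median, such as those of Asb4, cannot be told from background.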
